A study of Mus musculus with 4 samples.

Results

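The Hox genes of DPPIV- and DPPIV+ fibro-adipogenic progenitors (FAPs), the stromal cells of skeletal muscle, were followed in 4 bulk RNA-seq libraries. A member is any row of the count table whose symbol is Hoxa, Hoxb, Hoxc or Hoxd followed by a number, which gave 39 of 24421 symbols. These are 11 Hoxa, 10 Hoxb, 9 Hoxc and 9 Hoxd genes, and their antisense and host transcripts were left out. Wild-type adult mice received CSF1R inhibition with PLX73086 for 3 weeks, which removes macrophages that need CSF1, and then regular diet for 3 days. From each of 2 such mice, PI- CD31- CD45- Sca1+ cells were split by surface DPPIV, the protein of Dpp4, into a DPPIV- and a DPPIV+ library (n = 2 mice per cell type). Both cell types had therefore seen the same treatment, and untreated mice were not analysed here. The sex and age of each mouse are not given. The labels name the tibialis anterior as the tissue, whereas their protocol describes muscle of both hindlimbs, so a library may mix muscles. The study profiled the DPPIV+ FAPs as a subset that may serve macrophages, and the comparison here asks which Hox genes differed between the subsets of the same animal.

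Hox genes encode homeodomain transcription factors that give cells their address along the body. They lie in 4 clusters, and a gene's number (its paralogue group) marks its place in the cluster. Genes with low numbers, at the 3′ end of a cluster, are used towards the head, and genes with high numbers, at the 5′ end, towards the tail and the tips of the limbs. In the limb, the 5′ genes of the Hoxa and Hoxd clusters pattern the segments from thigh to digits, and the 5′ Hoxc genes are used in the hindlimb. Adult fibroblasts keep much of the Hox pattern of their site of origin, and connective tissue cells of the limb carry such codes. Hox proteins bind DNA together with TALE homeodomain partners of the Pbx and Meis families, and Polycomb and trithorax complexes hold the clusters silent or active.

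The libraries held 18240110 to 20879405 counted reads, and Hox genes took 3101 to 3621 of them, 0.0167 to 0.0177% of a library. The Hox genes are thus measured from few reads, which limits the precision of each value. Of the 39 members, 34 had reads. Hoxb1, Hoxb13, Hoxc12, Hoxd1 and Hoxd12 had 0 reads in every library, which allows up to 0.143 to 0.166 CPM, the value of 3 reads in a library, where CPM is the reads of a gene scaled to a common library size. A further 16 members had reads but stayed under the filter of 2 CPM in at least 2 libraries, and 18 members passed it and were tested. Such a floor covers counting error only. The tested members were 6 of 11 Hoxa, 3 of 10 Hoxb, 7 of 9 Hoxc and 2 of 9 Hoxd genes. The FAP markers Pdgfra (1157 to 1653 CPM) and Dcn (10287 to 14406 CPM) were high in every library. All 7 FAP markers differed between the cell types in edgeR (33.0% of all genes tested) and DESeq2 (16.6%). Pdgfra, Dcn, Lum and Col1a1 were lower in DPPIV+ FAPs (log2 fold changes -0.85 to -0.28). Ly6a (0.58), Cd34 (0.52) and Dpp4 (3.41) were higher there. The cells were sorted by DPPIV, so the Dpp4 difference was set by the sort. Dpp4 had 39.6 and 89.6 CPM in the DPPIV- libraries against 574 and 727 CPM in the DPPIV+ libraries.

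**Figure D1:**
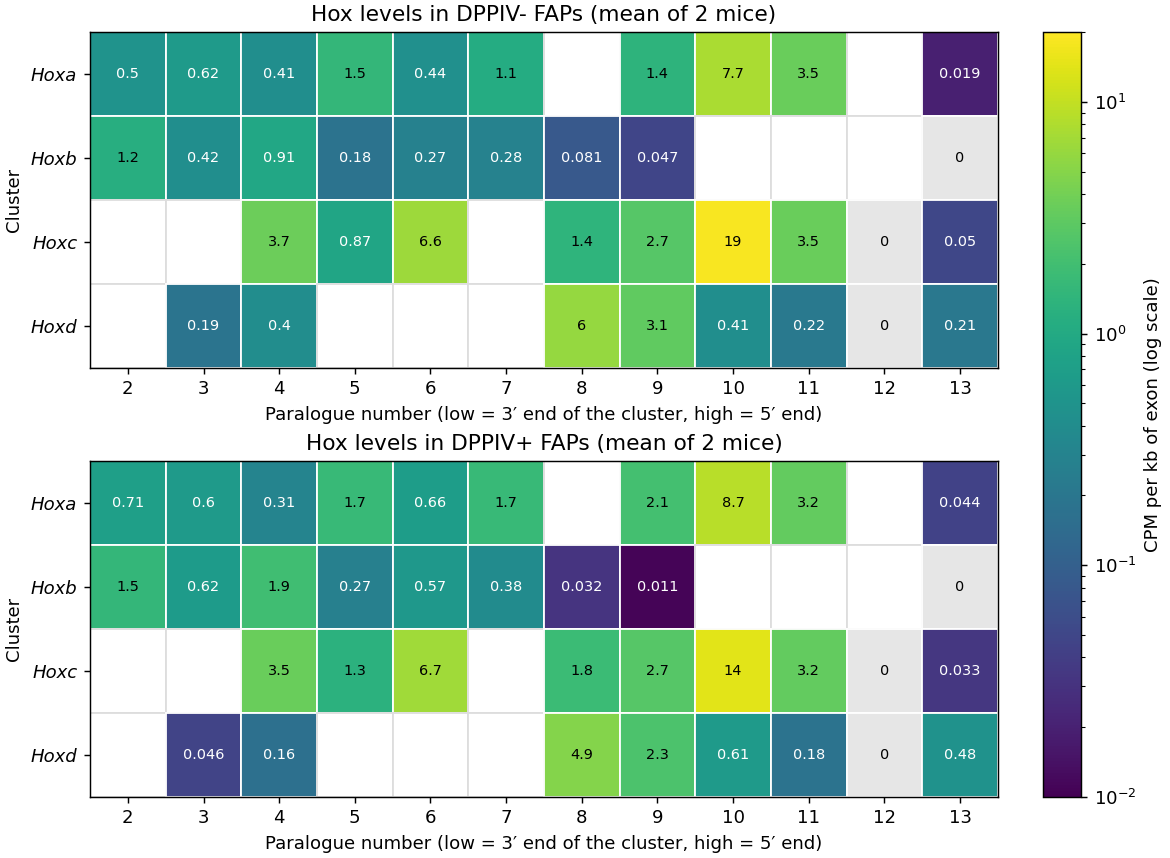
Level of each Hox gene in DPPIV- and DPPIV+ FAPs, as CPM per kilobase of exon on a log colour scale (mean of 2 mice), with clusters in rows and paralogue groups from 2 upward in columns. Grey cells mark genes at 0 reads in all libraries, and the highest cell is Hoxc10 in both cell types.

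Per kilobase of exon, the level of Hoxc10 was the highest of the tested members (16.5 ± 3.11 CPM per kb, SD over 4 libraries). Hoxc10 is a 5′ gene of the hindlimb and the lumbar spinal cord. It was followed by Hoxa10 (8.21 ± 1.06), which patterns the lumbar region and the thigh, and by Hoxc6 (6.64 ± 0.300) and Hoxd8 (5.47 ± 1.02). The 4 libraries of Hoxc10 did not overlap with those of Hoxa10, and those of Hoxc6 did not overlap with those of Hoxd8, whereas the ranges of Hoxa10 and Hoxc6 did. A second tier ran from Hoxc4 (3.58 CPM per kb) through Hoxc11 (3.39), Hoxa11 (3.37) and Hoxd9 (2.71) to Hoxc9 (2.70), and within it each neighbour in the order overlapped with the next. The lower tier held Hoxa9 (1.71), Hoxc8 (1.60), Hoxa5 (1.59), Hoxb4 (1.43), Hoxa7 (1.37), Hoxb2 (1.36) and Hoxc5 (1.07 CPM per kb), again with overlapping neighbours. Hoxa3 (0.611) and Hoxb3 (0.522 CPM per kb) were the lowest tested. This order depends on the annotated exon length, and which of the annotated exons the cells used was not tested. Hoxa9 was divided by 5580 exon bases, and the genes of the second tier by at most 2568. Over the 4 libraries together, Hoxa9 had 726 reads, more than each gene of the second tier (448 to 708). Its place in the lower tier therefore holds per kilobase only. The 7 highest members held the same ranks in both cell types, and Hoxb4 moved from rank 15 in DPPIV- to rank 11 in DPPIV+ FAPs.

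The cells expressed genes of both ends of the clusters. Paralogue groups 9 to 13 gave 57.7% (95% Wilson interval 56.0 to 59.3) and 58.0% (56.4 to 59.7) of the Hox reads in the DPPIV- libraries. Their share was 54.7% (53.0 to 56.4) and 55.1% (53.4 to 56.9) in the DPPIV+ libraries, below both DPPIV- values but with intervals that overlap in part. These intervals cover counting error only, and no test was made on sums of genes. Paralogue group 10 alone, which is Hoxa10, Hoxc10 and Hoxd10, held 61.2 and 62.5 CPM in DPPIV- and 57.2 and 56.1 CPM in DPPIV+ FAPs. At the 5′ ends, Hoxa13 had 0 to 3 reads per library and Hoxd13, with which it patterns the digits, had 8 to 22. Hoxc13, known from hair and nails, had 0 to 3.

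In edgeR's quasi-likelihood test with mouse as a block, 4 of 18 tested members passed an adjusted p of 0.05 (22.2%), against 33.0% of all 11588 genes tested. Hoxb4, Hoxa7 and Hoxa9 were higher in DPPIV+ FAPs (15.9% of all genes tested), and Hoxc10 was lower (17.2%). Among the 6312 genes tested whose mean lay in the members' range of 2.22 to 31.5 CPM, 26.2% passed. The members' share is therefore below that of the genes as a whole and near that of genes of similar abundance. Their median log2 fold change was 0.09, beside -0.0020 over all genes tested, and their median absolute log2 fold change was 0.31, beside 0.16. All genes tested include genes with more reads, where counting error is smaller. No median was taken over the 6312 genes of similar abundance, so whether the members differed more than those was not tested. With 2 mice, the fit has 1 residual degree of freedom per gene and borrowed the spread wholly from genes of similar abundance.

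Hoxb4, a 3′ gene of the Hoxb cluster known for its role in blood stem cells and the neck vertebrae, had the largest change of the tested members. It had 2.34 and 2.35 CPM in the DPPIV- libraries of mouse 1 and mouse 2 (49 and 46 reads). The DPPIV+ libraries held 5.93 and 4.05 CPM (107 and 74 reads). Both DPPIV+ libraries were above both DPPIV- libraries, and the higher of them was that of mouse 1. The log2 fold change was 1.08 (SE 0.24, 95% interval 0.61 to 1.55, adjusted p = 4.25e-05 by edgeR), a 2.12-fold higher level, with 1.34 in mouse 1 and 0.79 in mouse 2. The gene lies at chr11:96318267-96321638 on the plus strand (GRCm38).

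Hoxa9 and Hoxa7 are neighbours on the minus strand of chromosome 6. Hoxa9, a 5′ gene active in limb buds and in blood progenitors (chr6:52223100-52231089), had 8.15 and 7.04 CPM in DPPIV- and 13.4 and 9.64 CPM in DPPIV+ FAPs. The fitted log2 fold change was 0.59 (SE 0.16, 95% interval 0.28 to 0.90, adjusted p = 8.25e-04 by edgeR), 0.71 in mouse 1 and 0.45 in mouse 2. Hoxa7, a gene of the middle of the cluster that patterns the trunk (chr6:52214491-52221854), had 3.10 and 3.01 CPM in DPPIV- and 5.10 and 4.60 CPM in DPPIV+ FAPs. The fitted difference was 0.67 on the log2 scale (SE 0.23, 95% interval 0.21 to 1.12, adjusted p = 0.0147 by edgeR), 0.72 and 0.61 in the mice. For both genes the DPPIV+ libraries lay above the DPPIV- libraries. In the annotation, 586 exon bases of Hoxa7 (20.4%) are shared with the antisense Hoxaas3, which had at most 0.0510 CPM in any library, and Hoxa9 holds the 85 bases of the Mir196b hairpin on its own strand.

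Hoxc10 (chr15:102966796-102971893, plus strand) was the member that fell. It had 32.3 and 39.5 CPM in DPPIV- and 26.3 and 27.8 CPM in DPPIV+ FAPs, so that both DPPIV+ libraries were lower. The log2 fold change was -0.40 (SE 0.09, 95% interval -0.58 to -0.23, adjusted p = 2.16e-05 by edgeR), -0.30 in mouse 1 and -0.51 in mouse 2. With 475 to 775 reads per library, it had the most reads of the members over the 4 libraries together (2436). Hoxa10 had more in the DPPIV+ library of mouse 1 (542 against 475). Hoxc10 remained the highest per kilobase in DPPIV+ FAPs. Hoxc10 shares 166 exon bases (8.70%) on the same strand with an annotated transcript of Hoxc5, so a part of their reads may be split between them.

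**Figure D2:**
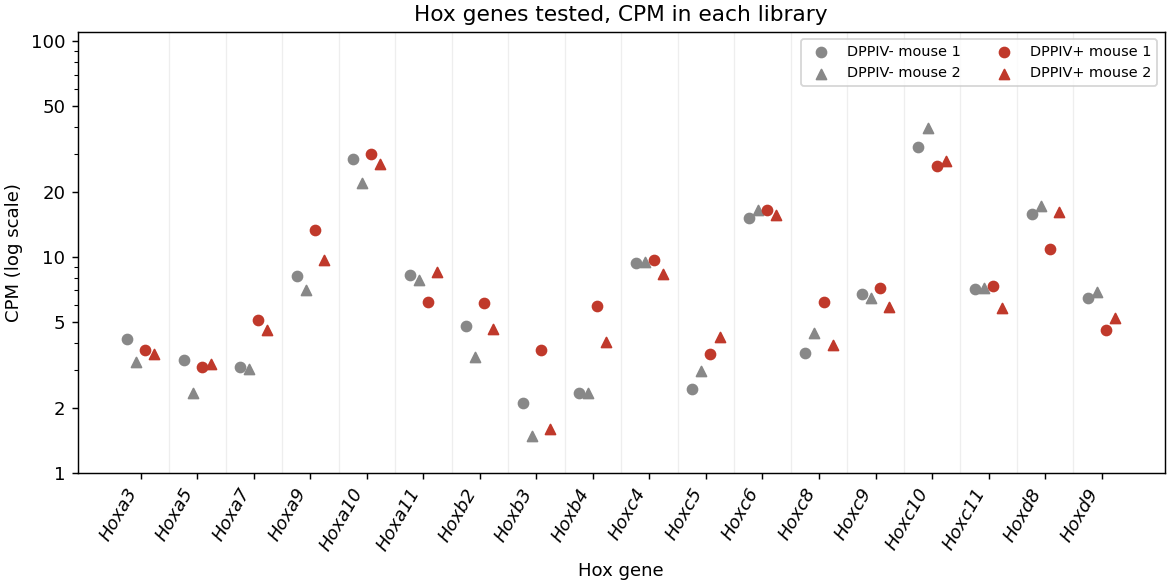
CPM (log scale) of the 18 tested Hox genes in each of the 4 libraries, grey for DPPIV- and red for DPPIV+, circles for mouse 1 and triangles for mouse 2. For Hoxa7, Hoxa9, Hoxb4 and Hoxc5 both red points lie above both grey ones, and for Hoxc10 and Hoxd9 both lie below.

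These calls depended on the method and on the libraries included. DESeq2's Wald test called 0 of 18 members (16.6% of all genes tested), with adjusted p of 0.0782 for Hoxb4, 0.0896 for Hoxc10, 0.157 for Hoxa9 and 0.388 for Hoxa7. At an unadjusted p under 0.05, DESeq2 had 3 members and edgeR 7. The share of all genes at that cut was not taken. Unadjusted counts, here and below, are therefore not read as more or fewer than among other genes. Without the mouse block, edgeR called Hoxb4 (adjusted p = 0.0265) but not Hoxc10 (0.0503), Hoxa7 (0.0761) or Hoxa9 (0.0812), and 18.3% of all genes. Each library was also left out in turn, in fits without the block. Hoxb4 then lost its call only without the DPPIV+ library of mouse 1 (log2 fold change 0.79, adjusted p = 0.192 by edgeR). Hoxc10 kept it only without the DPPIV- library of mouse 1 (adjusted p = 0.00508 by edgeR), with adjusted p of 0.134 to 0.222 without the others. Hoxa9 kept it only without the DPPIV+ library of mouse 2 (0.0369), with 0.055 to 0.436 otherwise, and Hoxa7 lost it in each of the 4 fits (0.169 to 0.310). All 4 genes kept the direction of their change in every alternative.

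The 3 genes that rose were chosen by that rise, so their shared direction was set by the choice. Their promoters are printed so that the sequence at their start can be read beside these values. Each is the window from 250 bases before to 50 after the start in RefSeq on GRCm38.p6, 5′ to 3′ on the gene's strand, with CG dinucleotides in capitals. Hoxc10 had no entry, and 22 of 39 members had one. For Hoxb4 the window spans the start of the gene given above, whereas for Hoxa7 and Hoxa9 the RefSeq start lies inside the GENCODE gene, downstream of its first base.
Hoxb4 (chr11:96318017-96318316, plus strand): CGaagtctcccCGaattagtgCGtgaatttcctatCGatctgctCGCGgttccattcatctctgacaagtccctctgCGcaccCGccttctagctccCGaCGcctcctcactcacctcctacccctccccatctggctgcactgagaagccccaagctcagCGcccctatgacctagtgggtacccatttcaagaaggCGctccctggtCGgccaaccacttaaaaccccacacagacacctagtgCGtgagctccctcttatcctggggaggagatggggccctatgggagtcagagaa
Hoxa7 (chr6:52218524-52218823, minus strand): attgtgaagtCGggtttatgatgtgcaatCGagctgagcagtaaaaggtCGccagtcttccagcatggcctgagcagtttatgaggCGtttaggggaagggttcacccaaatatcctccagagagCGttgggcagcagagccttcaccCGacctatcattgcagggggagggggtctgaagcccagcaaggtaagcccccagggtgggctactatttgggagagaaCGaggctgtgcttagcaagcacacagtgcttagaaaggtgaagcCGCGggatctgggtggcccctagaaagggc
Hoxa9 (chr6:52227321-52227620, minus strand): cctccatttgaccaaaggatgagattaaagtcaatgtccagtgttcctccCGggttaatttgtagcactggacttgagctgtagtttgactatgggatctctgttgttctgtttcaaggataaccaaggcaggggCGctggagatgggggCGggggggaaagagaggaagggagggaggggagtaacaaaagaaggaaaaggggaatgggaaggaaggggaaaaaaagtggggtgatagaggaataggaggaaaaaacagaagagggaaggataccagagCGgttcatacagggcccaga
The windows held 14, 9 and 4 CG in that order, beside a median of 7 over 32851 promoters, of which 94.6% held at least 1. On both strands, none of the 3 windows held TATAAA (13.6% of all promoters), CCAAT (37.4%) or TGATNNAT (8.85%), a Hox and Pbx type of element, and only Hoxa9 held GGGCGG (35.7%). A match or its lack describes these letters in this window only.

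Of the other 14 tested members, 0 passed edgeR's test, 3 of them with an unadjusted p under 0.05, and 0 passed DESeq2's. Hoxd8 and Hoxd9, the tested members of the Hoxd cluster, lay nearest to it on the low side. Hoxd8 had 15.8 and 17.2 CPM in DPPIV- and 10.9 and 16.2 CPM in DPPIV+ FAPs (fitted log2 fold change -0.30, SE 0.12, adjusted p = 0.0508 by edgeR), and its difference was -0.53 in mouse 1 and -0.09 in mouse 2. Hoxd9, which acts with Hoxa9 on the upper limb, had 6.44 and 6.89 against 4.60 and 5.20 CPM, with no overlap between the cell types (log2 fold change -0.44, SE 0.20, adjusted p = 0.0721 by edgeR). On the high side stood Hoxc5 (log2 fold change 0.54, SE 0.24, adjusted p = 0.0786 by edgeR), with 2.43 and 2.96 CPM in DPPIV- and 3.55 and 4.27 CPM in DPPIV+ FAPs. Hoxb3, a hindbrain and neck gene, had a log2 fold change of 0.54 (adjusted p = 0.138 by edgeR) that came mainly from mouse 1, with 0.82 there and 0.10 in mouse 2. Its neighbour Hoxb2 had 0.40 (0.161), with 0.35 and 0.44. Hoxa10 had 0.18 (SE 0.09, 0.127), with 0.08 in mouse 1 and 0.29 in mouse 2, and this moved to 0.0056 without the DPPIV- library of mouse 2 and to 0.38 without that of mouse 1. Hoxc8, a thoracic gene, had 0.32 (0.291), with 0.79 in mouse 1 and -0.19 in mouse 2.

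**Figure D3:**
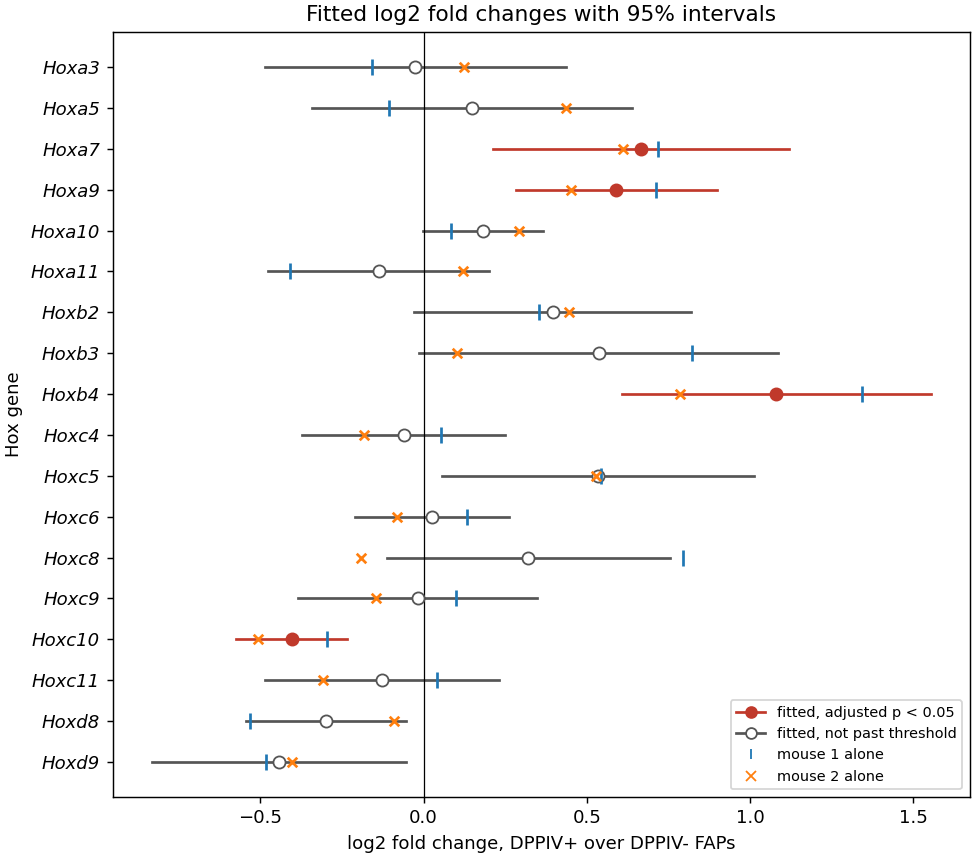
Fitted log2 fold change (DPPIV+ over DPPIV-) of the 18 tested Hox genes with 95% intervals, and the ratios of mouse 1 and mouse 2 as separate symbols. The 4 genes past the threshold are Hoxb4, Hoxa7 and Hoxa9 above 0 and Hoxc10 below it.

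The remaining log2 fold changes were close to 0 for Hoxa5 (0.15), Hoxc6 (0.03), Hoxc9 (-0.02), Hoxa3 (-0.02), Hoxc4 (-0.06), Hoxc11 (-0.13) and Hoxa11 (-0.14). For the best counted of them, Hoxc6, with 286 to 325 reads per library, the 95% interval ran from -0.21 to 0.26. For Hoxa5, a gene of the lung and neck with 46 to 70 reads, it was wider, from -0.34 to 0.64. The CPM of the cell types did not overlap in 6 of 18 members (33.3%), against 56.3% of all genes tested. The ratio had the same sign in both mice in 10 of 18 (55.6%), against 72.9%. Both shares are lower in the members than among all genes, and no test was made on either. Neither share was taken for genes of similar abundance.

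The Hox genes did not all lie on 1 side of 0, and members of some paralogue groups stood on both sides. In group 9, the log2 fold change was 0.59 for Hoxa9, -0.02 for Hoxc9 and -0.44 for Hoxd9. In group 10 it was 0.18 for Hoxa10 and -0.40 for Hoxc10, and in group 4 it was 1.08 for Hoxb4 and -0.06 for Hoxc4, which turned to 0.018 once GC content and length were corrected for. In group 5 (Hoxa5 0.15 and Hoxc5 0.54) and group 11 (Hoxa11 -0.14 and Hoxc11 -0.13) the tested members lay on the same side. The intervals of Hoxa9 (0.28 to 0.90) and Hoxd9 (-0.83 to -0.05) do not overlap, nor do those of Hoxa10 (-9.5e-05 to 0.37) and Hoxc10 (-0.58 to -0.23) or of Hoxb4 (0.61 to 1.55) and Hoxc4 (-0.37 to 0.25). The difference between such genes was not itself tested.

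By cluster, the sum over all Hoxb genes was 11.6 and 8.47 CPM in DPPIV- and 18.2 and 12.98 CPM in DPPIV+ FAPs. The log2 ratio of the sums was 0.65 in the first mouse and 0.62 in the second. This was the largest ratio of the 4 clusters in each mouse. The Hoxb share of the Hox reads was 6.71% (95% Wilson interval 5.94 to 7.57) and 4.93% (4.25 to 5.71) in DPPIV- FAPs. In DPPIV+ FAPs it was 10.2% (9.18 to 11.3) and 7.64% (6.76 to 8.63). The sum includes Hoxb4, called above, with means of 2.34 and 4.99 CPM in DPPIV- and DPPIV+ FAPs. Hoxb2 and Hoxb3 share 27.3% and 52.9% of their exon bases with the antisense Hoxb3os, and whether the counting used strand is not stated. The Hoxd sum was 25.7 and 28.9 against 18.7 and 25.6 CPM (log2 ratios -0.46 and -0.18). The Hoxa sum was 58.5 and 47.8 against 64.9 and 59.5 CPM (0.15 and 0.32). The Hoxc sum was 76.8 and 86.7 against 76.9 and 71.8 CPM (0.0024 and -0.27). Over all 39 members the sums were 172.6, 171.9, 178.7 and 169.8 CPM, with log2 ratios of 0.05 in mouse 1 and -0.02 in mouse 2. The summed Hox CPM was thus nearly the same in both cell types of each mouse, while Hoxb and Hoxd sums differed in opposite directions. These sums are not scaled by exon length, so they count reads and not transcripts. In bulk RNA, fewer cells that express a gene and less RNA per cell cannot be told apart.

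**Figure D4:**
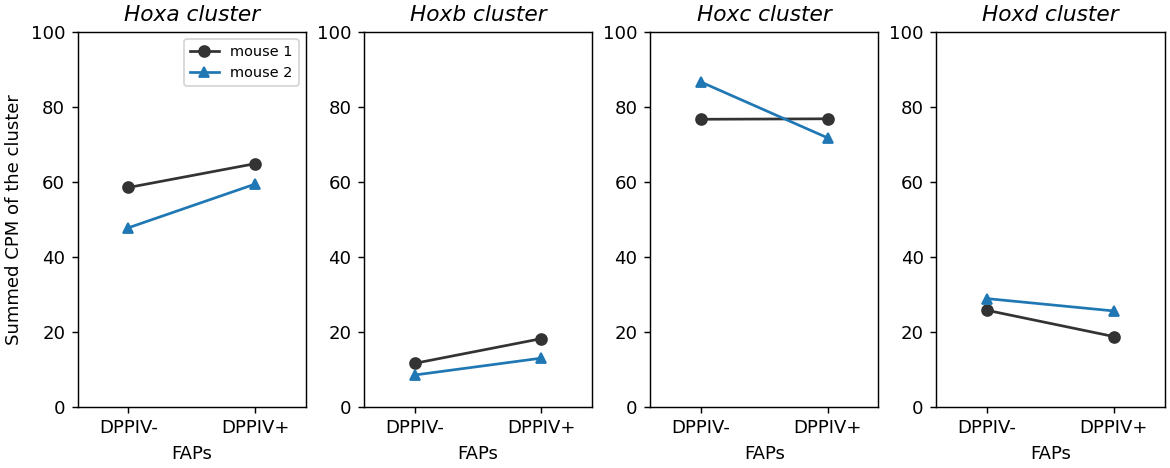
Summed CPM of the Hoxa, Hoxb, Hoxc and Hoxd genes in each library, with lines joining the DPPIV- and DPPIV+ libraries of the same mouse. The Hoxb lines rise and the Hoxd lines fall in both mice.

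The 16 members with reads under the filter were examined in a fit without a filter, in which 4.94% of 5285 genes under the filter passed and 0 of these 16 did, 3 of them with an unadjusted p under 0.05 (23.1% of 16873 genes passed overall). DESeq2 was not run without the filter. Hoxd3 and Hoxd4, neighbours at the 3′ end of the Hoxd cluster, had the smallest adjusted p of them. Hoxd3 had 18 and 14 reads in DPPIV- and 5 and 2 in DPPIV+ FAPs (log2 fold change -1.996, SE 0.81, adjusted p = 0.0592 by edgeR). Hoxd4 had 19 and 29 against 6 and 11 reads (-1.33, SE 0.57, adjusted p = 0.0782 by edgeR). Their libraries did not overlap, but the genes are not independent, since they share 388 exon bases on the same strand. In the annotation, Gm28230 on that strand also shares 2225 exon bases with Hoxd3 (53.1%) and 1154 with Hoxd4 (39.1%). It is not among the counted symbols, and how reads there were assigned is not known. On the other side, Hoxd13, a gene of the digits, had 8 and 13 reads in DPPIV- and 22 and 21 in DPPIV+ FAPs (1.20, adjusted p = 0.113 by edgeR), and Hoxb6 had 15 and 7 against 17 and 24 (1.07, 0.180).

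Of the others, Hoxa2, Hoxa4, Hoxb5, Hoxd10 and Hoxd11 had 8 to 25 reads per library, and Hoxa6 had 1 to 15 and Hoxb7 4 to 14. Hoxa13, Hoxb8, Hoxb9 and Hoxc13 had 0 to 9. Their adjusted p ran from 0.535 to 0.862 in edgeR's test without a filter. At this depth, where 2 CPM is 36.5 to 41.8 reads, the intervals are wide, and a p that misses the threshold does not show equal levels. Hoxd10 and Hoxd11 are known as strong limb genes of the embryo, and in these adult cells they stayed at 10 to 25 reads.

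**Figure D5:**
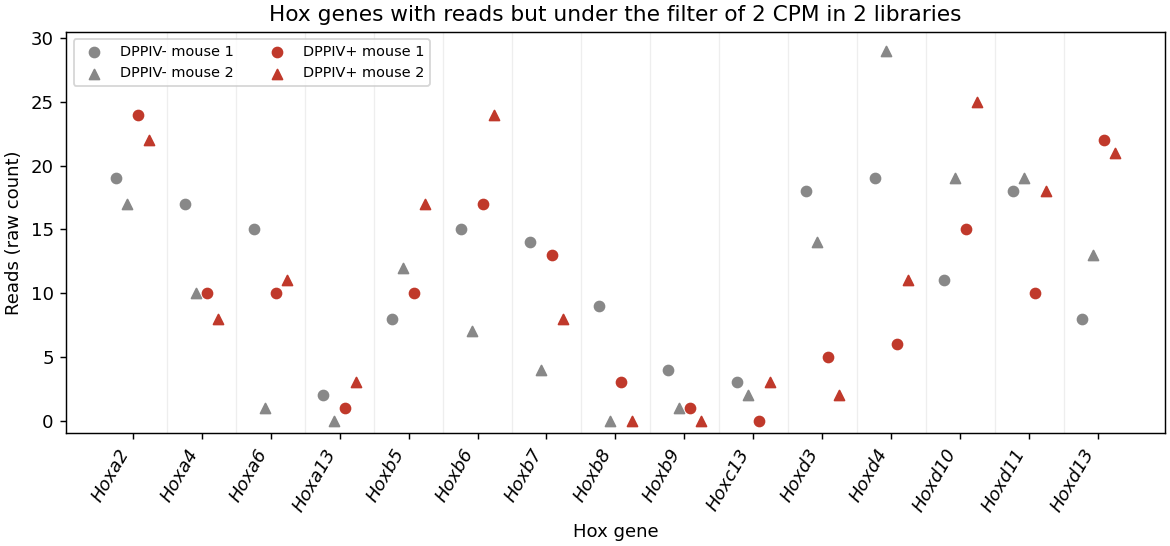
Reads per library of 15 Hox genes with reads that stayed under the filter, grey for DPPIV- and red for DPPIV+, circles for mouse 1 and triangles for mouse 2. Hoxd3 and Hoxd4 have fewer reads in both DPPIV+ libraries than in either DPPIV- library, and Hoxa2, Hoxb6 and Hoxd13 have more.

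Between the mice, Hoxb3 was the 1 member past the threshold, lower in mouse 2 by a log2 value of -0.89 (SE 0.28, adjusted p = 0.0245 by edgeR, 2 of 2 cell types), against 8.98% of all genes tested. It had 2.10 and 3.71 CPM in mouse 1 and 1.48 and 1.59 CPM in mouse 2. This call was lost with DESeq2, with RLE scaling and without a filter. Hoxb3 shares 2250 exon bases (52.9%) with Hoxb3os on the opposite strand, and whether the counting used strand is not stated. Hoxa10 (-0.26, adjusted p = 0.0538) and Hoxd8 (0.33, 0.0812) were next in edgeR's test of the mice.

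The clusters also hold microRNA genes, and miR-196 is known to act on Hox messages. These are printed because the seed (bases 2 to 8, in capitals) is the part that pairs with a message. The sequences are from RefSeq, 5′ to 3′.
mmu-miR-196a-5p: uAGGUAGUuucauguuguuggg
mmu-miR-196b-5p: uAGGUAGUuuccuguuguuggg
mmu-miR-10a-5p: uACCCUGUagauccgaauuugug
mmu-miR-10b-5p: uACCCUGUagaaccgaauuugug
Both miR-196 share 1 seed and both miR-10 another. The rows of Mir196a-1, Mir196a-2, Mir196b, Mir10a and Mir10b held 0 reads in every library, but an mRNA library does not measure mature microRNAs. The letters ACTACCT, which pair with the miR-196 seed, were found in the longest annotated 3′ UTR of 9 of 39 Hox genes (6.09% of 20987 genes), among them Hoxa4, Hoxa5, Hoxa7, Hoxa9, Hoxb1, Hoxb6, Hoxb7 and Hoxc8. Among the genes that rose, Hoxa7 held 4 matches and Hoxa9 held 1, and Hoxb4 held none. The sites with the most pairing to the microRNA are shown with the seed match in capitals.
Hoxa7: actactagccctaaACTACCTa
Hoxa9: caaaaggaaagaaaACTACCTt
The miR-10 match ACAGGGT was found in 4 of 39 Hox genes (12.5% of all genes), among them Hoxa3, Hoxb3 and Hoxd1. A match is a stretch of letters and was not measured as a target.

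Among the partners of Hox proteins, 10 of 11 TALE genes were tested, of which 1 rose and 2 fell in edgeR's test, near the 33.0% of all genes. Meis2 had 16.1 and 14.8 CPM in DPPIV- and 24.3 and 20.0 CPM in DPPIV+ FAPs (fitted log2 fold change 0.52, adjusted p = 2.2e-05 by edgeR). Pknox2, a relative of the Meis genes, fell from 29.0 and 29.1 to 19.3 and 22.7 CPM (-0.47, adjusted p = 6.49e-06 by edgeR), and Tgif2, a repressor of the same class, fell by 0.75 on the log2 scale (adjusted p = 0.00565 by edgeR). DESeq2 called 0 of the 10 (16.6% of all genes), with 2 at an unadjusted p under 0.05.

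Of the 29 Polycomb, trithorax and insulator genes that hold Hox clusters silent or active, 28 were tested, 2 rose and 1 fell, a smaller share than the 33.0% of all genes. Phc3 and Ezh1, members of the Polycomb complexes, rose by 0.25 (adjusted p = 0.00108) and 0.17 (0.0349), and Jarid2, an accessory subunit, had -0.35 (5.06e-04, edgeR). DESeq2 called 0 of these 28, with 2 at an unadjusted p under 0.05. Few noncoding transcripts of the clusters passed the filter. Of 21 listed antisense, host and long noncoding transcripts, 17 had a row and 3 were tested. Of these 3, 0 were called by edgeR or DESeq2 (2 and 0 at an unadjusted p under 0.05). The 8 at 0 in all libraries were Hoxb5os, Haglr and the microRNA rows, and an mRNA library does not measure mature microRNAs. Hotair, which lies in the Hoxc cluster, had 1.31 to 2.49 CPM (log2 fold change -0.06). Hoxa11os, which shares 800 exon bases with Hoxa11 on the opposite strand (35.0% of that gene's exon bases), had -0.56 (adjusted p = 0.0534 by edgeR), with -1.03 in mouse 1 and -0.06 in mouse 2. Mira had 0.57 (0.0533), with 0.59 and 0.54.

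Other homeobox genes beside the clusters, and the related ParaHox genes, were absent or rare, with 7 of 11 at 0 reads in all libraries and 0 past the filter. In edgeR's fit without a filter, 2 of them passed, against 4.94% of the 5285 genes under the filter. Evx2, beside the Hoxd cluster, had 1 and 0 reads in DPPIV- and 3 and 14 in DPPIV+ FAPs (adjusted p = 0.0436 by edgeR). Most of its reads thus came from the DPPIV+ library of mouse 2. Gbx2 had 3 and 38 against 1 and 3 reads (adjusted p = 0.00462 by edgeR), so that the DPPIV- library of mouse 2 held nearly all of its reads. Of 14 listed non-Hox neighbours in the table, 11 were tested in edgeR, of which Snx10, near the Hoxa cluster, rose (log2 fold change 0.47, adjusted p = 8.16e-05) and Cbx5, near the Hoxc cluster, fell (-0.22, adjusted p = 0.00343), again a smaller share than the 33.0% of all genes. DESeq2 called 0 of them, with 1 at an unadjusted p under 0.05.

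Markers of other cell types also differed between the sorted cells, and their part in the Hox values was not tested. Among all genes tested, edgeR called 15.9% higher and 17.2% lower in DPPIV+ FAPs, and DESeq2 called 16.6% in either direction. All 4 tenocyte markers (Tnmd, Scx, Mkx and Fmod) rose in edgeR's test, with summed levels of 196 and 294 CPM in DPPIV- and 747 and 1547 CPM in DPPIV+ FAPs. Of 6 mural cell markers 5 fell, with sums of 121 and 123 against 51.1 and 63.4 CPM. Of the endothelial markers, Pecam1, Cdh5 and Kdr fell in edgeR's test and Tek rose. The log2 ratios of Pecam1 (-0.80) and Kdr (-0.95) were low in mouse 1 and near 0 or above it in mouse 2 (-2.5e-05 and 0.10), and Kdr had 14.1 CPM in the DPPIV- library of mouse 1 against 6.58 to 7.32 CPM in the others. The sum of the list went from 241 and 181 to 500 and 456 CPM with Tek. Of 5 blood cell markers Adgre1 and Lyz2 fell, Lyz2 with -0.75 in mouse 1 and -0.04 in mouse 2. Again the DPPIV- library of mouse 1 stood highest (219 CPM of Lyz2 against 121 to 130). The list had sums of 264 and 156 against 162 and 149.6 CPM and Cd3e at 0 or 1 read. DESeq2 called 4 of the tenocyte, 3 of the mural and 1 of the endothelial markers, and 0 of the blood cell markers, with 1 of those at an unadjusted p under 0.05. Of the nerve sheath markers S100b fell in edgeR's test and in DESeq2's (adjusted p = 0.0294 by DESeq2). That list had sums of 22.8 and 17.4 against 14.1 and 18.9 CPM. The satellite cell and myofibre markers had sums of 28.6 and 42.4 against 31.8 and 44.1 CPM, with 0 called by edgeR or DESeq2, 0 at an unadjusted p under 0.05 and Pax7 under the filter.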

How the data were processed

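RNA of sorted DPPIV- and DPPIV+ FAPs from 2 mice gave 4 libraries. The authors demultiplexed the reads with bcl2fastq 2.20, aligned them to mm10 with STAR, counted them with RnaReadCounter and deposited raw counts per gene symbol, without normalization or filter. The annotation release and the use of strand are not given in the sources used here. The labels name the NEBNext Ultra II kit and the paper TruSeq.

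Counts were normalized by TMM and compared in R 4.3.3 with edgeR 4.0.16 (quasi-likelihood F test, not robust, two-sided, mouse as block) over 11588 genes with 2 CPM in at least 2 libraries, with Benjamini-Hochberg adjustment over all of them at 0.05. Prior degrees of freedom came out as infinite. The standard error is the log2 fold change over the square root of F. CPM used total counts times TMM factors, ratios per mouse used a prior count of 0.125, and kilobases, positions and overlaps came from GENCODE M21 on GRCm38. DESeq2 1.42.0 was an alternative. The labels give each mouse to 1 library of each cell type, and the differences between the mice correlated between the cell types (0.415 across 11588 genes, which are not independent). P-values rest on 2 mice.

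Some items are not reported here. The other members are named. Full values are given for those past the threshold, and of the other lists the members that passed. The members and lists were chosen with earlier results of these data known.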

Additional observations from a re-analysis of the deposited data

How the results depend on the processing

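The alternatives were no mouse block, DESeq2, the likelihood ratio test, robust moderation, a test against a 1.5-fold change, RLE and upper-quartile scaling, 3 filters, an adjusted p under 0.01, a GC content and length correction in the blocked fit, and each library or mouse left out.

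Of all genes tested, 3826 passed in the blocked fit, 2120 without the mouse block (pairing ignored), 1918 with DESeq2, 1092 against a 1.5-fold change, and 1364 to 2139 with a library left out. The Hox genes called higher were 3 with the block, 1 without it, 0 with DESeq2 or against a 1.5-fold change, 2 at an adjusted p under 0.01, 6 with the GC content and length correction, and 0 to 2 with a library left out. The Hox genes called lower were 1 with the block, 0 without it, 0 with DESeq2 or against a 1.5-fold change, 2 with the likelihood ratio test or robust moderation, 3 with upper-quartile scaling, and 0 to 1 with a library left out. Between the mice 1 was called, and 0 with DESeq2, RLE scaling or no filter. The correction added Hoxa10 (adjusted p = 0.0139), Hoxb3 (0.0473) and Hoxc5 (0.0321), and upper-quartile scaling added Hoxd8 (0.0235) and Hoxd9 (0.0463), all in edgeR. With the correction, the log2 fold change was -0.19 for Hoxd8 (adjusted p = 0.243 by edgeR) and -0.29 for Hoxd9 (0.255). With a library left out, it ran from -0.59 to -0.029 for Hoxd8 and from -0.53 to -0.36 for Hoxd9. The causes were not tested. A fit with a library left out has no block and assumes that a lone library varies like the others.

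Hoxb4 passed in 12 of 15 alternatives, Hoxa9 and Hoxc10 in 9 and Hoxa7 in 8. With the correction, the log2 fold changes of Hoxa3 (0.048), Hoxc4 (0.018) and Hoxc9 (0.081) changed sign, as did Hoxc6 (-0.018) with upper-quartile scaling. With a library or mouse left out, they ran from -0.19 to 0.16 for Hoxa3, -0.10 to 0.44 for Hoxa5, -0.41 to 0.12 for Hoxa11, -0.18 to 1.05 for Hoxb3, -0.18 to 0.054 for Hoxc4, -0.082 to 0.13 for Hoxc6, -0.19 to 0.79 for Hoxc8, -0.17 to 0.13 for Hoxc9 and -0.31 to 0.043 for Hoxc11. The filter of 2 CPM in at least 3 libraries gave no value for Hoxb3. Depth limits the members under 2 CPM most.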
